A study of Mus musculus with 6 samples.

Results

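Ribosome biogenesis factors are the proteins that transcribe, modify, cut and fold ribosomal RNA and assemble it into ribosomal subunits. The 34 genes described here were taken from a list of names. It uses no measured value, but was chosen with earlier results of these data known. The genes are factors that act from the transcription of ribosomal DNA to the last steps of subunit maturation. Each was read from its brightest probe set among those that the platform annotation pairs with 1 gene symbol, and all 34 were measured, out of 18193 genes in all. Expression was recorded on 6 mouse arrays from the myeloid clone C6, a haematopoietic progenitor clone on the C57BL/6J background with Rosa26rtTA. Cells of both groups carried the vector pRRL.TET.Evi1.IRES.EGFP, in which doxycycline drives a codon-optimized murine Evi1, and grew with murine stem cell factor, murine interleukin 3, human Flt3 ligand and human interleukin 11. The doxycycline group (n = 3) was kept under 1 µg/ml of the drug, and the withdrawal group (n = 3) was taken 48 h after its removal. Probe sets designed to the natural Evi1 transcript do not check a codon-optimized transgene, so its loss after withdrawal was not checked here. All arrays come from 1 clone, and the labels do not say whether replicates were separate cultures, so the p-values reflect the spread among these 6 arrays, which may be technical.

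Ribosomes are built mainly in the nucleolus. RNA polymerase I makes a long precursor there, small nucleolar RNPs (snoRNPs) guide its methylation and pseudouridylation, and the small subunit processome and large subunit factors cut and fold it around ribosomal proteins. Dividing progenitor cells express these genes strongly, and transcription factors of the Myc family, which bind the sequence CACGTG, are known to drive many of them.

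No ribosome biogenesis factor passed the test after withdrawal. In limma, 0 of 34 were higher and 0 of 34 lower at an adjusted p below 0.05, while 1.20% of all genes were called higher and 1.57% lower (2.26% lower among the 6724 genes at or above the level of the dimmest factor, 7.73 on the log2 scale). The smallest adjusted p was 0.0850, for Gnl3. Differences below are withdrawal minus doxycycline on the log2 scale with limma's standard error (n = 3 per group).

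The differences were small and mostly negative. Of the 34 factors 28 had a lower mean after withdrawal, 82.4% against 46.0% of all genes and 49.6% of genes at least as bright as the dimmest factor. Their median difference was -0.07, against 0.01 for all genes and 0.00 for those brighter genes, and single values ran from -0.28 for Gnl3 to 0.14 for Ebna1bp2. In 17 factors every withdrawal array was below every doxycycline array, which is 50.0% of the list, against 12.2% of all genes and 21.0% of the brighter genes. At an unadjusted p below 0.05 in limma 9 factors were lower and 0 higher, 26.5% of the list against 12.1% of the brighter genes lower. These shares describe the list and were not tested. The mean of the 34 values was 9.94, 9.93 and 9.88 on withdrawal replicates 1 to 3 and 9.97, 10.03 and 10.01 on doxycycline replicates 1 to 3, so the groups did not overlap on this mean.

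**Figure D1:**
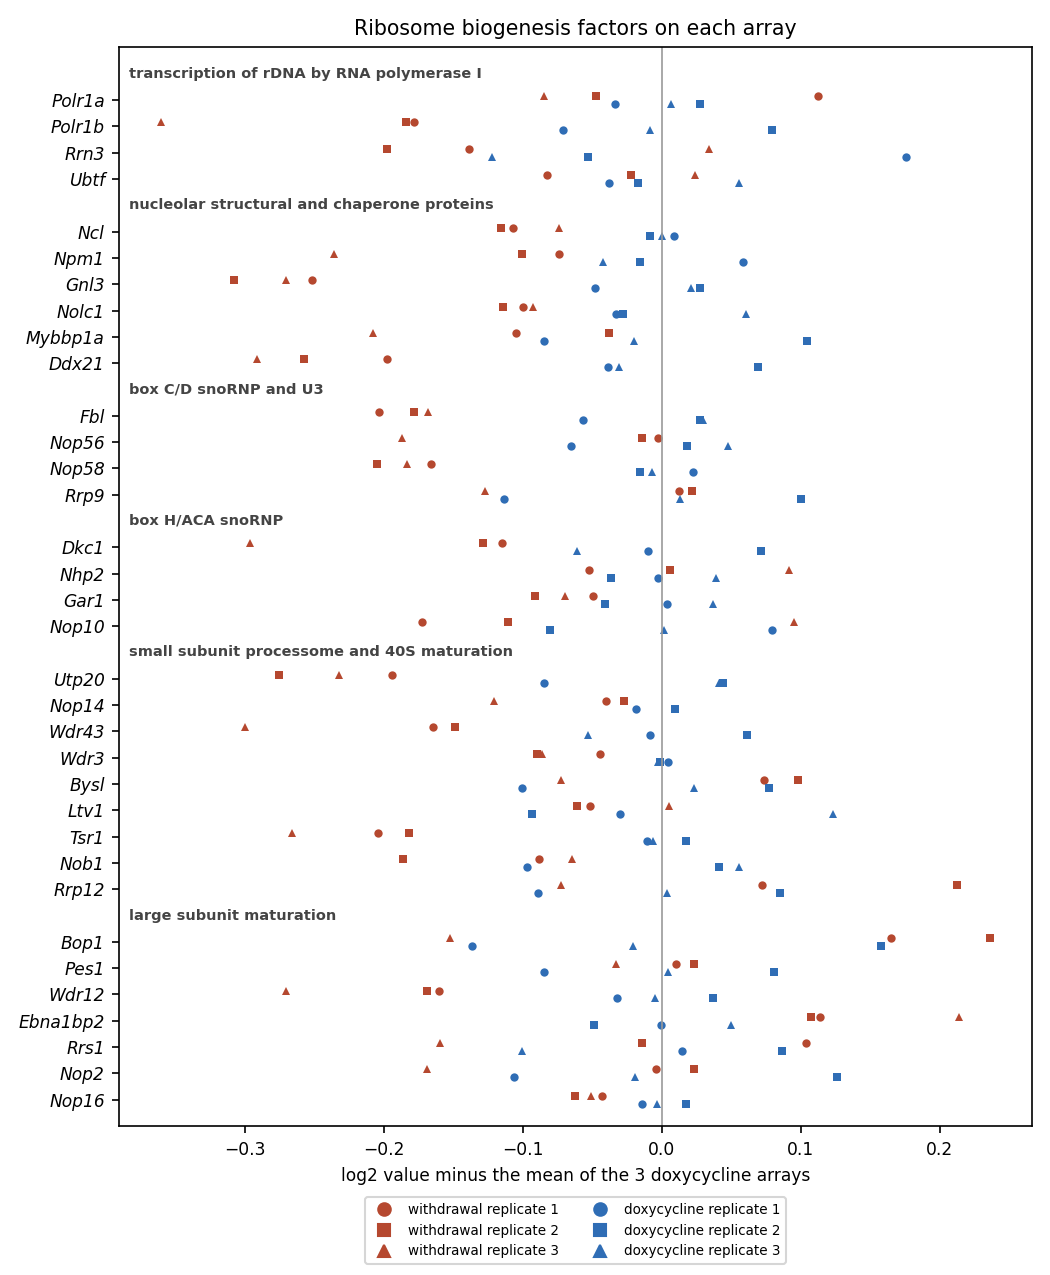
Log2 value of each of the 34 factors on each array, minus the mean of the 3 doxycycline arrays of that gene (x axis), with genes in rows ordered by role. Red symbols are withdrawal arrays, blue symbols doxycycline arrays, and the shape gives the replicate; in 17 rows all red symbols lie left of all blue ones, and in 1 row, Ebna1bp2, all lie right of them.

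The motif CACGTG, which is its own reverse complement, was counted in the RefSeq promoters of assembly GRCm38.p6, from 250 bases before to 50 bases after each start site. Promoters were found for 29 of the 34 factors. Of these 8 held the motif, 27.6%, against 13.1% of measured genes as bright as the factors or brighter and 8.09% of all genes in the table. In 2 factors it lay before the start site (6.90%, against 11.0% of those brighter genes) and in 6 within the first 50 bases after it (20.7%, against 2.71%). The 6 were Pes1 (first base at 3), Wdr43 (18), Tsr1 (25), Ltv1 (29), Utp20 (38) and Mybbp1a (41). Among 135 other genes of ribosome production with a promoter, 17.8% held the motif, 11.1% before the start site and 8.89% after it. These shares were not tested. A match describes letters and does not show that a factor binds there.

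The stretches that hold the motif before the start site are shown 5′ to 3′ on the gene's strand with the motif in capitals, since Rrn3 holds it at both -215 and -48 and Nop2 at -60. They lie at chr16:13780464-13780676 and chr6:125131803-125131848, both on the plus strand of GRCm38.p6.
Rrn3: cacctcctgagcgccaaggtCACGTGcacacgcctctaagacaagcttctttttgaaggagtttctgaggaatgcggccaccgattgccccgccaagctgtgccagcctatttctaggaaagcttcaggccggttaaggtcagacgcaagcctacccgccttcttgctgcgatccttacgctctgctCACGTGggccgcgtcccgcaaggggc
Nop2: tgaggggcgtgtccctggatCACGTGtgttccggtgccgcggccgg
Neither gene passed the test, and Rrn3 differed by -0.10 ± 0.10 and Nop2 by -0.05 ± 0.09. The 8 factors with the motif had a median difference of -0.11 (from -0.23 to 0.0003), and the 21 without it one of -0.07 (from -0.28 to 0.14), so the ranges overlapped widely.

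Most of the intervals around these differences included 0. The 95% intervals of limma, not adjusted for the number of genes, ran no lower than -0.43 (Polr1b) and no higher than 0.37 (Bop1), which are 1.35-fold lower and 1.29-fold higher. Of the 34 intervals 9 left out 0, all on the side of lower values. The smallest difference that this fit called for any gene was 0.32 in size, which is more than the largest difference of a factor, 0.28. The missing calls do not show that levels were equal, and some of these differences passed in other fits of the same arrays, given with the alternatives.

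**Figure D2:**
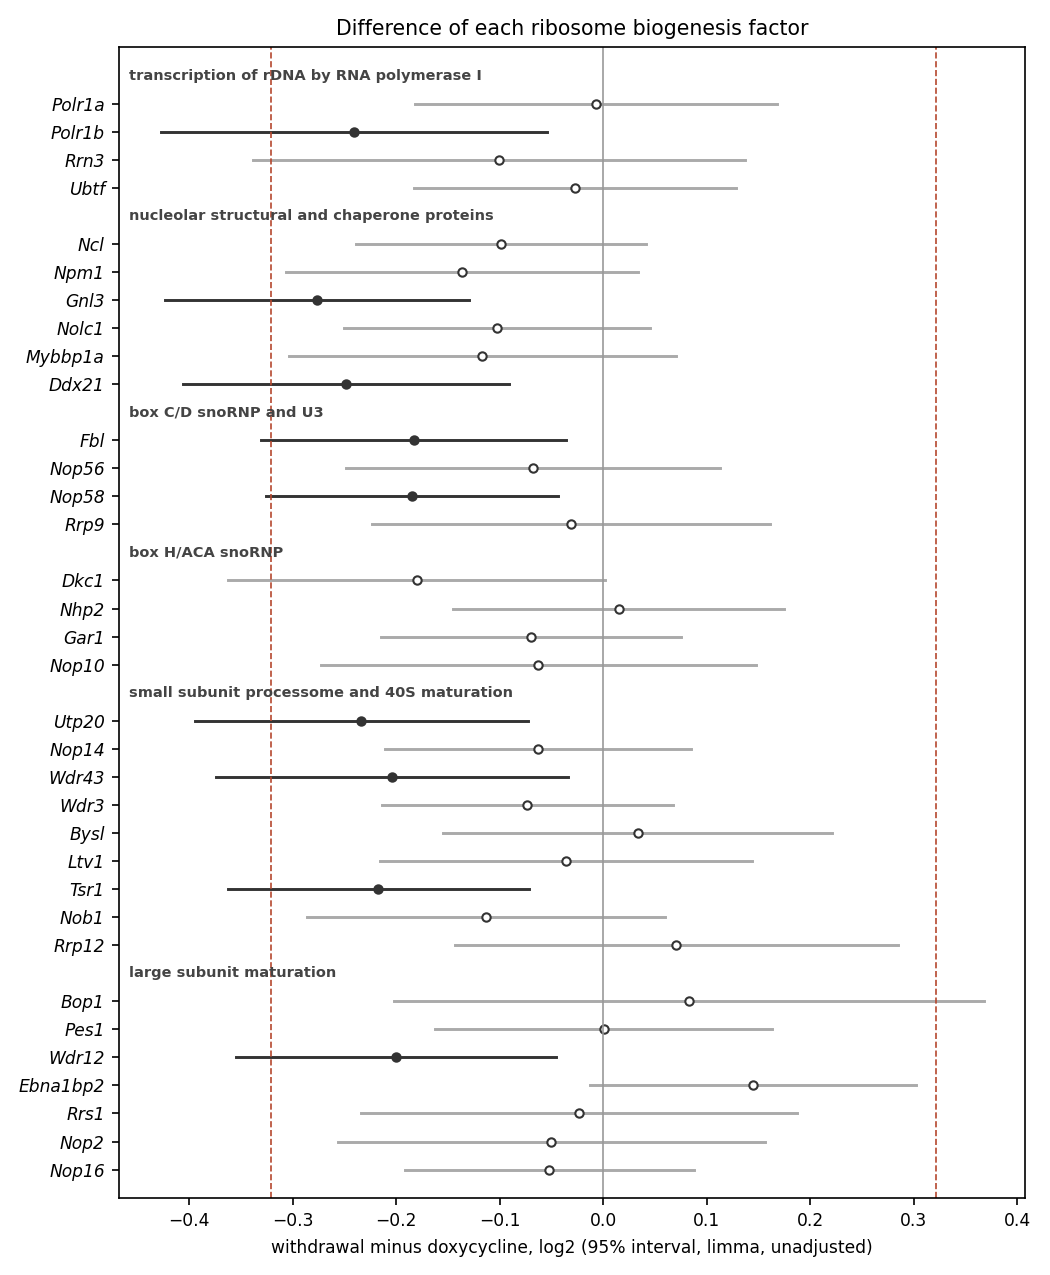
Difference between withdrawal and doxycycline on the log2 scale (x axis) for each factor, with its 95% interval from limma as a bar. Filled points and dark bars mark the 9 intervals that leave out 0, and the dashed lines mark 0.32 in either direction, the smallest difference called for any gene.

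Among the 4 factors of RNA polymerase I transcription, Polr1b, the second largest subunit of the enzyme, had the largest difference on the brightest probe sets. It read 7.89, 7.88 and 7.71 on withdrawal replicates 1 to 3, and 8.00, 8.15 and 8.06 on doxycycline replicates 1 to 3. The groups did not overlap, and the difference was -0.24 ± 0.08 (limma adjusted p = 0.224). Polr1a, the largest subunit, was at 7.72 ± 0.10 (SD, n = 3) after withdrawal and 7.73 ± 0.03 (SD, n = 3) under doxycycline, with a 95% interval of the difference from -0.18 to 0.17. Dimmer probe sets of Polr1a above the median level gave -0.22 ± 0.12 and -0.05 ± 0.08, both with overlapping groups. The size of the contrast with Polr1b thus varied with the probe set. Rrn3, which recruits the polymerase to its promoter, differed by -0.10 ± 0.10, and Ubtf, which binds along active ribosomal DNA, by -0.03 ± 0.07, and in both the groups overlapped.

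The 6 nucleolar structural and chaperone proteins all had lower means after withdrawal, with differences from -0.28 to -0.10 and a median of -0.13. Gnl3, or nucleostemin, a GTP-binding protein of the nucleolus in stem and dividing cells, read 10.12, 10.06 and 10.10 after withdrawal and 10.32, 10.39 and 10.39 under doxycycline. Its withdrawal values were all below its doxycycline values, a difference of -0.28 ± 0.06, or 1.21-fold (limma adjusted p = 0.0850). Ddx21, an RNA helicase that couples polymerase I transcription to processing, read 9.46, 9.40 and 9.37 after withdrawal and 9.62, 9.73 and 9.63 under doxycycline. The groups did not overlap there either, at -0.25 ± 0.07 (limma adjusted p = 0.138).

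The abundant nucleolar proteins nucleophosmin and nucleolin were read by bright probe sets with little spread. Npm1, the gene of nucleophosmin, was at 13.29 ± 0.09 (SD, n = 3) after withdrawal and 13.43 ± 0.05 (SD, n = 3) under doxycycline, a difference of -0.14 ± 0.07 (limma adjusted p = 0.467). Ncl, the gene of nucleolin, was at 12.88 ± 0.02 (SD, n = 3) and 12.98 ± 0.01 (SD, n = 3), a difference of -0.10 ± 0.06 (limma adjusted p = 0.530). The groups did not overlap for either gene. Nolc1, a chaperone of snoRNPs, differed by -0.10 ± 0.06 without overlap, and Mybbp1a, which links the nucleolus to p53, by -0.12 ± 0.08 with overlap.

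Of the box C/D proteins, which carry out methylation of ribosomal RNA, the methyltransferase gene Fbl and the core protein gene Nop58 differed by the same amount. Fbl read 11.74, 11.76 and 11.77 after withdrawal and 11.88, 11.97 and 11.97 under doxycycline (-0.18 ± 0.06, limma adjusted p = 0.241). Nop58 read 10.55, 10.51 and 10.53 after withdrawal and 10.73, 10.70 and 10.70 under doxycycline (-0.18 ± 0.06, limma adjusted p = 0.219). Neither gene had overlapping groups, and the spread within each group was at most 0.05 (SD). Nop56, the partner of Nop58 in the same particle, differed by only -0.07 ± 0.08 with overlapping groups, and Rrp9, a protein of the U3 snoRNP, by -0.03 ± 0.08.

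The box H/ACA proteins, which convert uridine to pseudouridine, were not alike. The enzyme gene Dkc1 read 11.39, 11.37 and 11.20 after withdrawal and 11.49, 11.57 and 11.44 under doxycycline, so the groups just failed to overlap (-0.18 ± 0.08, limma adjusted p = 0.356). Gar1 differed by -0.07 ± 0.06 without overlap. The small core proteins Nop10 (-0.06 ± 0.09) and Nhp2 (0.01 ± 0.07) had overlapping groups.

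In the small subunit group 7 of 9 genes had lower means, and their median difference was -0.07. Utp20, a large scaffold of the processome, read 8.56, 8.48 and 8.53 after withdrawal and 8.67, 8.80 and 8.80 under doxycycline (-0.23 ± 0.07, limma adjusted p = 0.174). Tsr1, a late 40S assembly factor, read 9.67, 9.69 and 9.60 after withdrawal and 9.86, 9.89 and 9.86 under doxycycline (-0.22 ± 0.06, limma adjusted p = 0.162). Wdr43, a processome subunit, differed by -0.20 ± 0.07 (limma adjusted p = 0.256). The groups did not overlap for these 3 genes, nor for Wdr3 (-0.07 ± 0.06) and Nop14 (-0.06 ± 0.06), both also of the processome. Nob1, the nuclease that makes the 3′ end of 18S ribosomal RNA, differed by -0.11 ± 0.07, and Ltv1, an export factor of the 40S precursor, by -0.04 ± 0.08. Bysl (0.03 ± 0.08) and Rrp12 (0.07 ± 0.09), which act on the 40S precursor and its export, had slightly higher means with overlapping groups.

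The large subunit group was the most mixed, with 4 of 7 means lower and a median of -0.02. Wdr12, Pes1 and Bop1 form 1 complex that acts on the large subunit precursor. Wdr12 read 9.98, 9.97 and 9.87 after withdrawal and 10.11, 10.18 and 10.14 under doxycycline (-0.20 ± 0.07, limma adjusted p = 0.224), without overlap. Pes1 differed by 0.0003 ± 0.07, with a 95% interval from -0.16 to 0.16. Bop1 differed by 0.08 ± 0.12 and had the widest spread of the 34 genes, at 8.61 ± 0.21 (SD, n = 3) after withdrawal and 8.53 ± 0.15 (SD, n = 3) under doxycycline. Dimmer probe sets of these genes above the median level all had negative differences, of -0.32 ± 0.08 for Wdr12, -0.14 ± 0.09 for Pes1 and -0.18 ± 0.07 for Bop1. The genes were not tested against each other.

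Ebna1bp2, an assembly factor of the large subunit, was the only factor whose withdrawal values all lay above its doxycycline values. It read 10.19, 10.18 and 10.29 after withdrawal and 10.07, 10.02 and 10.12 under doxycycline (0.14 ± 0.07, limma adjusted p = 0.396). The remaining genes of the group were closer to 0, namely the methyltransferase gene Nop2 (-0.05 ± 0.09), Nop16 (-0.05 ± 0.06, without overlap) and Rrs1 (-0.02 ± 0.09).

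**Figure D3:**
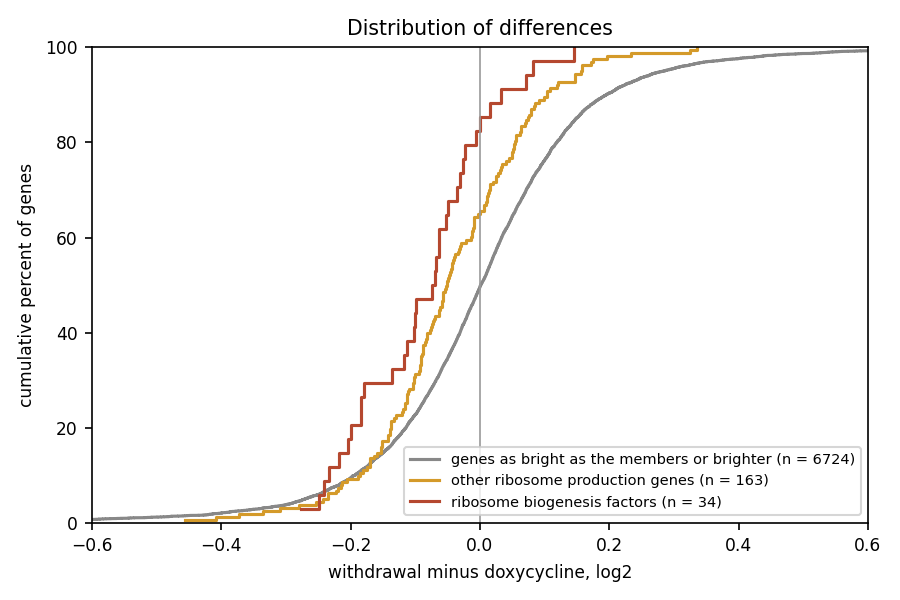
Cumulative percent of genes (y axis) at or below each difference between withdrawal and doxycycline on the log2 scale (x axis, cut at both ends), for the 34 factors, 163 other genes of ribosome production and the 6724 genes at or above the level of the dimmest factor. At 0 the curve of the factors stands at 82.4%, that of the other ribosome production genes at 65.0% and that of the brighter genes at 49.6%.

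Further probe sets gave a separate reading of the same RNA. Above the median level of all probe sets (5.24) there were 26 further probe sets, on 21 of the factors, and 0 of them were called; 22 had a negative difference, against 50.7% of all probe sets above that level. Their median was -0.18, against 0.00 for those probe sets. In 14 of the 26 the withdrawal values lay below the doxycycline values without overlap, as in 17.1% of all probe sets above that level. Of these 26, 20 were more negative than the brightest probe set of their gene. At an unadjusted p below 0.05 in limma 11 of the 26 were lower, against 11.8% of those probe sets. Several share a gene, and these shares were not tested. The 5 others lay at or below the median level and are not described further.

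For some genes the choice of probe set mattered for the size. Besides its brightest probe set, Ncl had a further one that read 8.78, 8.69 and 8.68 after withdrawal and 9.08, 9.05 and 9.02 under doxycycline (-0.33 ± 0.06, limma adjusted p = 0.0521). Other further probe sets of Ncl gave -0.37 ± 0.09 and -0.09 ± 0.06. The 4 bright readings of Ncl thus shared a sign but ranged from -0.37 to -0.09. Further probe sets of Nolc1 gave -0.30 ± 0.06 (limma adjusted p = 0.0679) and -0.20 ± 0.07, and those of Dkc1 -0.29 ± 0.06 (limma adjusted p = 0.0699) and -0.19 ± 0.10. For Bysl and Bop1 the sign differed between probe sets, since the dimmer ones gave -0.34 ± 0.10 and -0.18 ± 0.07 where the brightest gave slightly positive values. Mybbp1a and Wdr43 went the other way, with 0.06 ± 0.08 and 0.02 ± 0.06 on their further probe sets. Fbl (-0.20 ± 0.06), Ddx21 (-0.22 ± 0.08) and Tsr1 (-0.19 ± 0.08) had closely matching further readings, and Gnl3 has no further probe set of its own. Why probe sets of 1 gene differ was not tested.

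**Figure D4:**
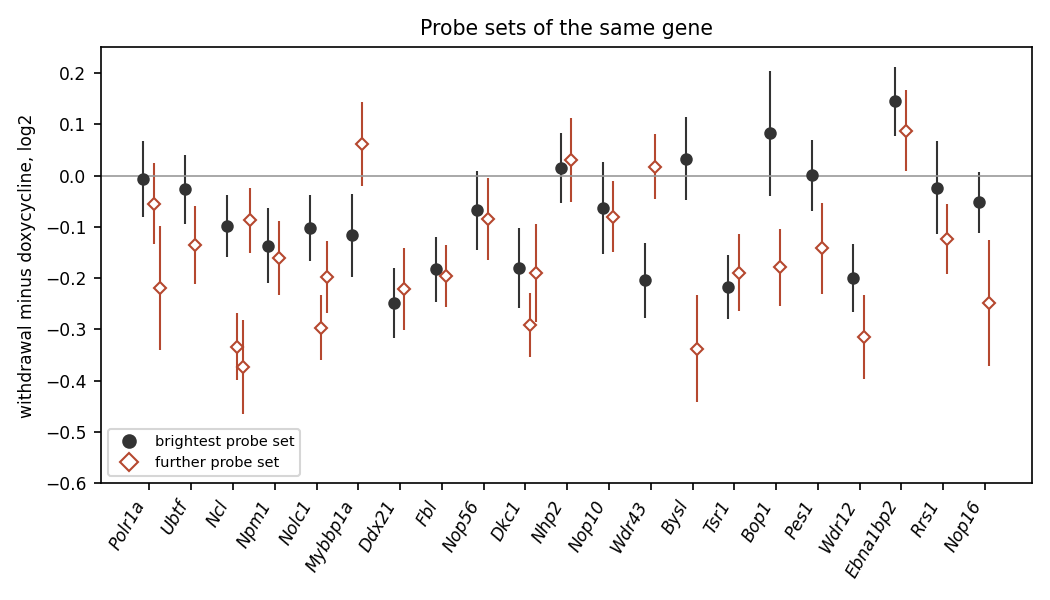
Difference between withdrawal and doxycycline on the log2 scale (y axis) with limma's standard error for the 21 factors with more than 1 probe set above the median level. Filled circles are the brightest probe set of the gene and open diamonds its further probe sets, of which 22 of 26 lie below 0.

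On the second principal component of probe sets above the median level, 2 arrays had negative scores. They were withdrawal replicate 3 (-22.99) and doxycycline replicate 1 (-11.43). The others ran from 2.10 (doxycycline replicate 3) to 12.45 (doxycycline replicate 2). Doxycycline replicate 1 was thus no further from the centre than doxycycline replicate 2. Of the 34 factors 16 read below their group mates on both of these arrays and 5 above them on both. Bop1 was below its mates by the most, by -0.35 on withdrawal replicate 3 and -0.20 on doxycycline replicate 1, while Nop10 (0.24 and 0.12) and Rrn3 (0.20 and 0.26) were above theirs. Without both arrays, a choice made after seeing the data, the median of the factors was still -0.07, 28 were negative and 0 were called, with 6 at an unadjusted p below 0.05 in limma.

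Calls differed between fits of the same 6 arrays, for all genes as well as for the factors. With limma's trend and robust options 7 factors were lower, namely Gnl3, Ddx21, Fbl, Nop58, Utp20, Tsr1 and Wdr12, which is 20.6% of the list, and 0 were higher. In that fit 4.02% of all genes and 7.54% of the brighter genes were called lower. With only probe sets above the median level in the fit, Gnl3, Ddx21 and Tsr1 passed as lower, 3 of 34, against 5.21% of the genes in that fit. With array weights Gnl3 alone passed, against 2.69% of all genes, and with all probe sets of a gene averaged Gnl3 alone passed, against 2.06%. A count of 1 in 34 is near these shares. Leaving out any 1 array gave 0 calls of factors in either direction. Over all genes those fits called 57 to 152 higher and 94 to 182 lower, against 218 and 286 with all arrays. The count at an unadjusted p below 0.05 in limma was 5 without doxycycline replicate 2, against 9 with all arrays.

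Beyond the 34 factors, 163 further genes of ribosome production were measured from lists set by role, and their median difference was -0.05. Of these 1 was called higher and 2 lower, against 1.20% higher and 1.57% lower among all genes. Counts of 1 and 2 in 163 do not exceed those shares. Polr1c, a subunit shared by RNA polymerases I and III, differed by -0.37 ± 0.07 (limma adjusted p = 0.0499), and Polr3g, a polymerase III subunit of stem cells, by -0.41 ± 0.07 (limma adjusted p = 0.0343). Mphosph10, a U3 snoRNP protein, rose by 0.32 ± 0.06 (limma adjusted p = 0.0462). The calls of all 3 were lost when any 1 of the 6 arrays was left out, and with the replicate number as a block. Those of Polr1c and Mphosph10 were also lost with each array centred on its median and without probe sets named _s_at, _x_at or _a_at. Each of these fits called fewer of all genes than the main fit. Polr1c was also not called with the interquartile range of each array as a covariate, a fit that called more genes (277 higher, 320 lower). Mphosph10 was not called with averaged probe sets of a gene, which also called more (332 higher, 375 lower).

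By role, 1 of 11 further RNA polymerase I genes, 1 of 20 polymerase III genes and 1 of 49 small subunit genes passed, and 0 of 49 large subunit, 0 of 23 exosome and nuclease and 0 of 11 snoRNP assembly genes did. Of all genes 1.20% were called higher and 1.57% lower. An unadjusted p below 0.05 in limma was reached by 16.3% of all genes in either direction. In the lists it was reached by 2 of the polymerase I genes (both lower), 2 of the polymerase III genes (both lower), 9 of the small subunit genes (2 higher, 7 lower) and 5 of the large subunit genes (1 higher, 4 lower). The exosome and nuclease list had 1 (lower) and the snoRNP assembly list 3 (1 higher, 2 lower). Polr1e, another polymerase I subunit, had a larger difference than Polr1c with a wider error (-0.46 ± 0.10, limma adjusted p = 0.0733). In the snoRNP assembly list Znhit3 (0.33 ± 0.07) and Tgs1 (-0.31 ± 0.07), which methylates the caps of small RNAs, had opposite signs and did not pass. Median differences were -0.09 for snoRNP assembly, -0.08 for the large and -0.06 for the small subunit genes, 0.01 for exosome and nuclease genes, and -0.01 for both the polymerase I and the polymerase III genes.

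Of 15 measured genes of the Myc network and growth control 1 fell and 1 rose, against 1.57% lower and 1.20% higher among all genes. Mycn fell by 0.43 (SE 0.07, limma adjusted p = 0.0231), and Mlx, a partner of glucose-sensing factors of the same family, rose by 0.38 (SE 0.07, limma adjusted p = 0.0375). Both calls were lost when any 1 array was left out, in fits that called fewer of all genes. The mean of Mycn's probe sets gave -0.16 and was not called, in a fit that called more of all genes. Myc was 10.32 after withdrawal and 10.61 under doxycycline, a difference of -0.29 ± 0.06 (limma adjusted p = 0.0730) that did not pass.

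Other genes moved on these arrays as well. Of 8 measured markers of cycling cells 0 passed, 0 reached an unadjusted p below 0.05 in limma, and their differences ran from 0.01 to 0.19, so their sign was opposite to that of most factors; their mean level was 11.63 to 11.66 after withdrawal and 11.57 to 11.59 under doxycycline. Of 9 progenitor and early granule markers 2 rose, the granule genes Elane and Ctsg. The progenitor marker Cd34 fell, from a mean of 7.91 under doxycycline to 7.41 after withdrawal. The mean level of this list was 12.08 to 12.15 after withdrawal against 11.89 to 11.95. Of 5 mast cell and basophil markers 3 rose (mean level 11.67 to 11.75 against 10.99 to 11.05), and of 5 late neutrophil markers 1 rose (12.42 to 12.43 against 12.33 to 12.40). Of 3 megakaryocyte markers 2 fell (8.39 to 8.51 against 8.91 to 9.05), of 4 red cell markers 1 fell (5.27 to 5.34 against 6.04 to 6.11), and of 5 macrophage markers 1 fell (8.44 to 8.45 against 8.59 to 8.64). T cell, B cell and stromal markers had mean levels from 4.03 to 5.10 on all arrays, with 0 of 11 called and 2 at an unadjusted p below 0.05 in limma, both B cell markers. The part of these shifts in the small differences of the factors was not tested. In bulk RNA a smaller share of cells of a type cannot be told apart from less RNA per cell.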

How the data were processed

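Per the labels' protocols, SPIA amplification made cDNA from total RNA of 6 samples, and biotin was the label. Values were deposited as log2 signals per probe set, computed by RMA per the submitters' processing notes. Its version and chip definition: not given in the sources used here. From their range, the values are on a log2 scale. RMA makes the arrays' distributions alike, which would take out a change common to most genes.

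After 64 control probe sets were left out, 45037 were fitted with lmFit and eBayes of limma 3.58.1 (R 4.3.3), 3 arrays against 3 without covariates, two-sided, with Benjamini-Hochberg adjustment over all of them and a threshold of 0.05. Residual degrees of freedom were 4 and prior ones 3.54. Of each gene's probe sets with 1 annotated symbol, the one with the highest mean stood for it (18193 genes). Depth has no meaning for arrays, whose number limits the precision. The fit was also run on simulated normal values with each probe set's own mean and spread. Among 100 probe sets raised by 0.25 on the log2 scale 0% were called, and among 100 raised by 0.5, 39%. There were 40 calls, of which 1 was false. Only 200 of the 45037 probe sets were raised, while the main fit called 218 genes higher and 286 lower. With fewer calls the adjustment was stricter than on the real arrays. These shares therefore do not give what the main fit could call.

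Members, role lists, markers and alternatives were chosen with earlier results of these data known. Any of the 34 members could be named, and of other lists the genes past the threshold, up to 2 others with large differences and any gene of a list of at most 16; the factors called in alternatives and the further probe sets named were picked after their values were seen. Alternatives were each array left out, a replicate block, a filter on dim probe sets, median centring and repeated quantile normalization. Others were trend and robust options, array weights, averaged probe sets of a gene and a fit without probe sets named _s_at, _x_at or _a_at. Added later were a fit without 2 arrays and the interquartile range as a covariate. Promoters came from RefSeq; figures were drawn with matplotlib 3.10.9.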

Additional observations from a re-analysis of the deposited data

How the results depend on the processing

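The main fit called 0 factors in either direction, and 0 were called higher in each alternative. Counts of factors called lower were 3 with probe sets above the median level only, 7 with trend and robust options, 1 with array weights and 1 with all probe sets of a gene averaged, and 0 in the other alternatives run. The same fits called 580, 732, 489 and 375 of all genes lower, against 286 in the main fit. Without probe sets named _s_at, _x_at or _a_at only 29 of the 34 factors could be tested, and Gnl3 and Tsr1 were not among them. The only probe set of Gnl3 ends in _a_at, and those of Tsr1 end in _s_at. This filter goes by name only and does not show that a probe set cross-hybridises. The median difference of the factors stayed between -0.09 and -0.07 and moved by less than the spread between arrays (SD 0.03) in each alternative. Of 539 values of single factors under the alternatives 34 changed sign without a call, on 13 factors.

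For the 163 other ribosome production genes the main counts were 1 higher and 2 lower. They were 2 and 5 with probe sets above the median level only, 2 and 9 with trend and robust options, and 2 and 4 with array weights. With arrays centred on their medians they were 0 and 1. Without probe sets named _s_at, _x_at or _a_at, 0 were higher. Without any 1 of the arrays both counts were 0, and so they were without withdrawal replicate 3 and doxycycline replicate 1 together. These fits also called fewer of all genes than the main fit.

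With the replicate number as a block, 0 factors and 0 of the other ribosome production genes were called in either direction, and 10 factors reached an unadjusted p below 0.05 in limma. Correlations of deviations across probe sets for arrays of the same number were -0.30, 0.46 and -0.03. The largest of any pair, 0.55, joined withdrawal replicate 3 and doxycycline replicate 1. Deviations were centred within each group, which ties these values to each other, so they cannot decide whether the numbers pair the arrays. The block called 63 higher and 107 lower genes in all, against 218 and 286 in the main fit. Causes of these changes were not tested. The smallest difference called for any gene in the main fit was 0.32, and other fits of the same arrays called smaller ones. The number of arrays limits the precision.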
